A study of Gallus gallus with 72 samples.

Results

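The cytosolic ribosomal protein genes of chicken breast muscle were followed in 12 groups. They were taken by symbol: every gene named RPL or RPS with a number, RPLP0 to RPLP2 and RPSA, leaving out RPL3 and RPL3L. The rule found 59 genes among 12046, of which 36 encode proteins of the large ribosomal subunit and 23 of the small one. The symbols RPSA, RPL10, RPS27, RPL39 and RPS4X fit the rule, but no gene was analysed under them. RefSeq gives RPSA as another name of RPSAP58 and RPL39 as another name of RPL39L. Both lie outside the rule and were counted with the other ribosomal protein genes and paralogues. RPS4Y1 is counted with the small subunit; RefSeq gives RPS4 and RPS4X as other names of this chicken gene. All 59 had enough counts to be tested in every comparison.

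The tissue was frozen breast muscle of birds labelled as male broilers. Cornish and White Plymouth Rock are the purebred parental breeds, and the Crossbred birds are their progeny. Crossbred, Cornish and White Plymouth Rock birds were each sampled at 4 ages. These were embryonic day 17 (E17), and day 1 (D1), day 21 (D21) and day 42 (D42) counted from hatching. Each group held 6 libraries, 72 in all. The labels also place a myofibroblast name under a cell line tag, while the extraction protocol describes tissue, and the libraries were taken as whole muscle. The labels do not say that replicates were separate birds, so p-values measure only the spread between these libraries, which may be partly technical.

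A cytosolic ribosome is built from ribosomal RNA and a protein set in which each protein is present in about equal amounts. Its proteins are encoded by highly expressed genes whose mRNAs begin with a 5′ terminal oligopyrimidine tract (TOP) and are translated under the control of mTOR signalling. In skeletal muscle, ribosome number sets the capacity for protein synthesis, and ribosome production is known to be high during early growth.

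Total counts ran from 16673085 in Crossbred D1 library 1 to 75670549, and the second lowest total was 47478167. Levels are given as CPM, counts brought to a fixed library total after TMM scaling, a factor that corrects each total for composition. They are not divided by transcript length, so levels are compared between groups for a gene and never between genes. The 7 fast skeletal muscle marker genes together held 35260 to 98026 CPM in D42 libraries and 17713 to 29731 CPM in E17 libraries, so muscle transcripts were present throughout. In whole tissue, fewer cells of a type and less RNA per cell cannot be told apart.

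The summed level of the 59 genes set the scene for the breed and stage comparisons. At E17 it was lowest in Cornish muscle. Summed CPM had a lowest, median and highest value of 29424, 32960 and 39036 in Crossbred libraries, of 27012, 28382 and 32940 in Cornish libraries, and of 31207, 36577 and 39435 in White Plymouth Rock libraries. At D1 the means were 36537 ± 3908 CPM in Crossbred, 34357 ± 4023 in Cornish and 32042 ± 2779 in White Plymouth Rock (SD, n = 6 each). At D21 they were 29417 ± 3953, 30166 ± 5238 and 26269 ± 2051 CPM in the same order of breeds. At D42 they were 25058 ± 1909, 27217 ± 6887 and 22716 ± 3983 CPM. The ranges of the Cornish and White Plymouth Rock libraries overlapped at every stage.

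Without the TMM factor, the genes held on average 3.96% of all counts in Crossbred, 3.50% in Cornish and 4.31% in White Plymouth Rock at E17. At D42 the corresponding shares were 2.28%, 2.45% and 2.06%. On this scale the highest breed mean at D21 was that of the Crossbred, at 2.53%, against 2.48% in Cornish and 2.36% in White Plymouth Rock.

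**Figure D1:**
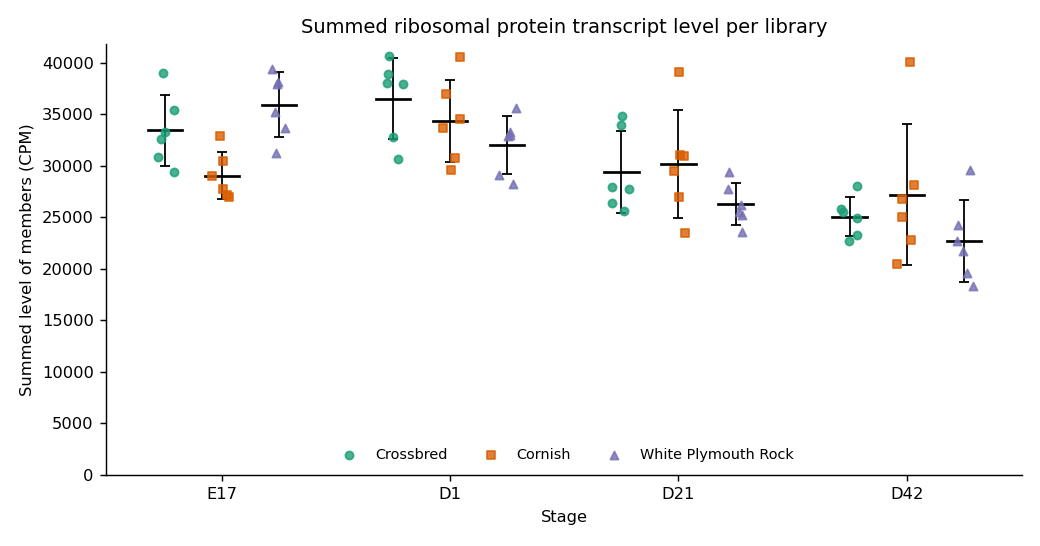
Summed level of the 59 ribosomal protein genes in CPM (vertical axis) in each of the 12 groups (horizontal axis); points are libraries and bars the mean ± SD of 6. White Plymouth Rock has the highest mean at E17 and the lowest at D1, D21 and D42.

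The first comparison asked how the purebreds differed before hatch. At E17 the ribosomal protein genes were lower in Cornish than in White Plymouth Rock as a group: 33 of 59 fell and none rose, against 2.07% of all 11717 genes tested called lower and 1.65% called higher (edgeR quasi-likelihood test, Benjamini-Hochberg adjusted p under 0.05). All 59 log2 fold changes were below 0, against 51% of all genes, and ran from -0.60 to -0.07. Their median was -0.32, against -0.0045 for all genes. Because the genes moved together from library to library, their signs and calls are not 59 separate results, here or in later comparisons. The result rests on the libraries of each breed, whose summed levels overlapped. These ran from 27012 to 32940 CPM in Cornish and from 31207 to 39435 CPM in White Plymouth Rock. Both subunits took part, with 18 of 36 large subunit genes and 15 of 23 small subunit genes called. For 11 of the 59, every Cornish library lay below every White Plymouth Rock library, which held for 1.4% of all genes.

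RPS3A, a small subunit protein at the platform near the mRNA exit channel, had the largest difference. Its lowest, median and highest values were 1238, 1500 and 1733 CPM in Cornish libraries and 1902, 2227 and 2399 CPM in White Plymouth Rock libraries. The ranges did not touch, and the log2 fold change was -0.60 ± 0.10 (SE, adjusted p = 0.00581). On the GRCg7b build RPS3A lies on chromosome 4 from 32812261 to 32815614.

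Among the other small subunit genes, RPS2, which lines the mRNA entry channel, fell by 0.45 ± 0.08 on the log2 scale (adjusted p = 0.00967). RPS27A, made as a fusion with ubiquitin, fell by 0.42 ± 0.09 (adjusted p = 0.0165). RPS3, also at the mRNA entry, was at 684 to 838 CPM in Cornish and 822 to 1066 CPM in White Plymouth Rock (-0.32 ± 0.08, adjusted p = 0.0350). These ranges overlapped only narrowly. RPS6, the target of the S6 kinases, was not called (-0.22 ± 0.08, adjusted p = 0.127), nor was RPS28, which sits near the mRNA exit (-0.37 ± 0.14, adjusted p = 0.134).

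In the large subunit, RPL38 was lower in Cornish, with a lowest, median and highest value of 22.0, 25.3 and 27.9 CPM, against 30.6, 33.1 and 37.2 CPM in White Plymouth Rock. All Cornish libraries lay below all White Plymouth Rock libraries (-0.42 ± 0.07, adjusted p = 0.00626). RPL38 lies on chromosome 18 from 9733297 to 9735797 and is known in the mouse for its part in the translation of Hox mRNAs. RPL15 fell by 0.46 ± 0.09 (adjusted p = 0.00967) and RPL12, at the base of the stalk that receives elongation factors, by 0.44 ± 0.09 (adjusted p = 0.0144). RPL5, which with RPL11 binds the 5S ribosomal RNA, fell by 0.38 ± 0.09 (adjusted p = 0.0276). RPL35A, needed in human cells for processing of large subunit ribosomal RNA, fell by 0.35 ± 0.09 (adjusted p = 0.0334).

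The stalk proteins that bind elongation factors were not called: RPLP0 was at -0.24 ± 0.08 (adjusted p = 0.104), RPLP1 at -0.12 ± 0.07 (adjusted p = 0.337) and RPLP2 at -0.20 ± 0.06 (adjusted p = 0.0774). RPL4, a wall of the tunnel through which the new chain leaves, was at -0.22 ± 0.09 (adjusted p = 0.170), RPL7 at -0.34 ± 0.10 (adjusted p = 0.0528) and RPL22 at -0.11 ± 0.07 (adjusted p = 0.399). All of these estimates were below 0 too.

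The number of calls at E17 moved much more than the estimates did. It was 47 with DESeq2, and 0 when all 72 libraries shared a spread, where 45 members had an unadjusted p under 0.05 and the median stayed at -0.31. Leaving out a library gave 11 to 41 calls, and the count went below 22 without Cornish library 1, 5 or 6 (12, 12 and 11) and without White Plymouth Rock library 3, 4, 5 or 6 (20, 14, 12 and 13). The median stayed between -0.36 and -0.28 in these fits. The share of all genes called was not recorded for the alternative fits of this paragraph, so their counts have no such share beside them.

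**Figure D2:**
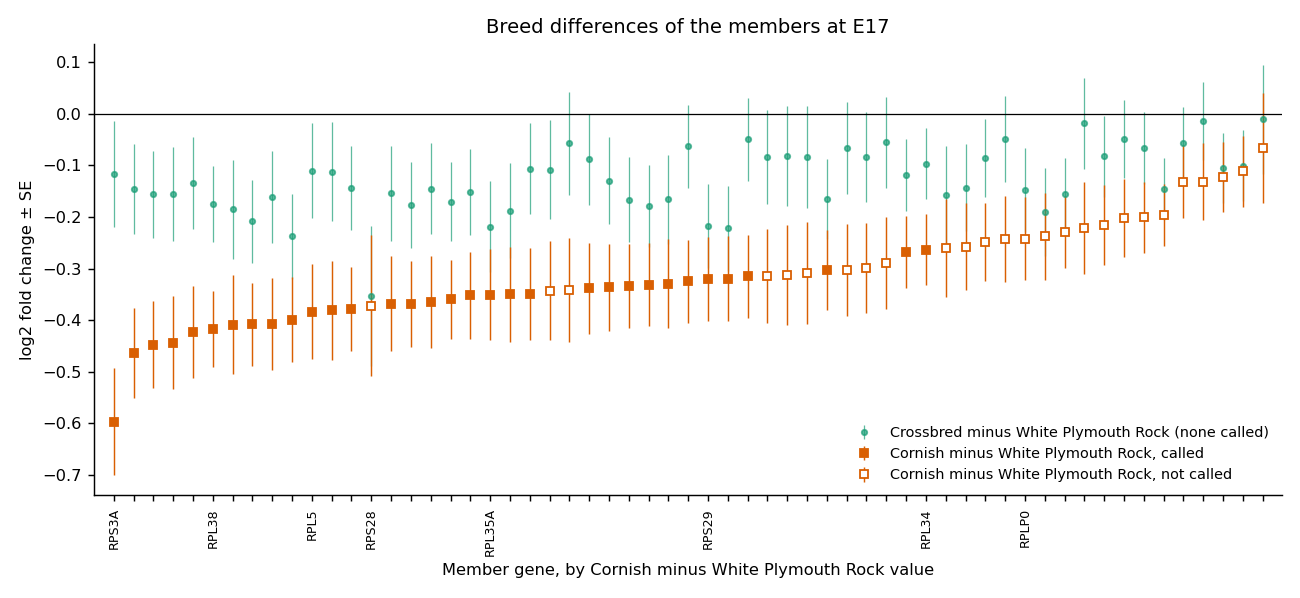
Log2 fold change ± SE of each of the 59 genes at E17 (vertical axis), sorted along the horizontal axis, for Cornish over White Plymouth Rock and for Crossbred over White Plymouth Rock; called and uncalled genes are drawn apart and only some are labelled. All 59 estimates lie below 0 in both, with 33 calls in the purebred comparison and 0 in the other.

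The next question was where the Crossbred stood between its parents at E17. All 59 Crossbred means lay between those of Cornish and White Plymouth Rock, a count whose share over all genes was not computed. RPS3A illustrates this, with a lowest, median and highest value of 1698, 2031 and 2465 CPM in Crossbred libraries, which overlapped White Plymouth Rock widely and the top of the Cornish range, and all lay above the Cornish median of 1500 CPM. RPL38 was at 25.1, 30.2 and 32.4 CPM in Crossbred libraries, which overlapped both parental ranges.

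None of these differences was called in edgeR. Crossbred over Cornish had 0 of 59 called (0.0171% of all genes), 35 with an unadjusted p under 0.05 (10.6% of all genes), 1 called by DESeq2 (RPS3A), and a median of 0.19. Crossbred over White Plymouth Rock had 0 called (0.00853% of all genes), 14 with an unadjusted p under 0.05 (9.2% of all genes), 0 called by DESeq2, and a median of -0.13, or -0.09 without White Plymouth Rock library 5. The 3 comparisons of a stage share libraries, so their values stand side by side and are no independent evidence of each other. The genes moved together from library to library, so the positions of the 59 Crossbred means are not separate results either.

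After hatch few breed differences passed the test. At D1 edgeR called 0 of 59 members in any breed comparison and 0% of all genes, and DESeq2 called 0 members as well. Cornish over White Plymouth Rock had a median of 0.09, which was 0.06, 0.04 and 0.05 without Cornish library 4, Cornish library 6 and White Plymouth Rock library 4, and 1 member with an unadjusted p under 0.05 (8.66% of all genes). Crossbred over Cornish had a median of 0.12, or 0.08 without Cornish library 2 or 3, and 2 such members (5.83% of all genes). Crossbred over White Plymouth Rock had a median of 0.19 and 13 such members (5.73% of all genes). The Crossbred mean was the highest of the 3 breeds for 51 genes at D1, a count whose share over all genes was not computed. Since the genes moved together from library to library, these are not 51 separate results.

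At D21 all 59 estimates for Cornish over White Plymouth Rock were above 0, against 48.4% of all genes, with a median of 0.18, and RPS28 was called. The median was 0.11 without Cornish library 5 and 0.06 with library totals in place of TMM. That is 1 of 59, against 1.53% of all genes called higher, so the share of members called was close to that of all genes. RPS28 had a lowest, median and highest value of 354, 475 and 749 CPM in Cornish and 211, 286 and 374 CPM in White Plymouth Rock. The ranges overlapped by little (0.80 ± 0.18, adjusted p = 0.0209). RPL35A was at 0.44 ± 0.15 (adjusted p = 0.104) and RPL34 at 0.41 ± 0.12 (adjusted p = 0.0719). DESeq2 called RPS28 and RPL34. Crossbred over Cornish had 0 called (0.122% of all genes) and a median of -0.06, which was 0.02 without Cornish library 5, with 1 member at an unadjusted p under 0.05 (10.3% of all genes). Crossbred over White Plymouth Rock had 0 called (0% of all genes) and a median of 0.13, or 0.09 without Crossbred library 2, with 3 members at an unadjusted p under 0.05 (4.68% of all genes). DESeq2 called 0 members in both.

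At D42 Cornish over White Plymouth Rock had a median of 0.30, which was 0.14 without Cornish library 3, with 58 of 59 estimates above 0 (51.4% of all genes) and 0 called by edgeR or DESeq2 (0.0347% of all genes). Of the members, 15 had an unadjusted p under 0.05 (8.48% of all genes). RPS28 was at 0.81 ± 0.24 (adjusted p = 0.308), RPL35A at 0.70 ± 0.19 (adjusted p = 0.286), RPS3A at 0.44 ± 0.22 (adjusted p = 0.616) and RPLP0 at 0.40 ± 0.17 (adjusted p = 0.557). Without Cornish library 3 these were at 0.45 ± 0.16, 0.52 ± 0.17, 0.13 ± 0.16 and 0.25 ± 0.15. With all 72 libraries in the fit, 5 members were called higher, RPS28, RPL35A, RPS4Y1 and RPS13 among them. The share of all genes called in that fit was not recorded. Crossbred over Cornish had a median of -0.17, which was -0.02 without Cornish library 3. Crossbred over White Plymouth Rock had one of 0.10, which was 0.06, 0.20 and 0.04 without White Plymouth Rock library 2, 3 and 4. In both comparisons 0 members were called by edgeR or DESeq2 (0% of all genes). They had 1 and 2 members with an unadjusted p under 0.05, against 2.08% and 5.03% of all genes.

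**Figure D3:**
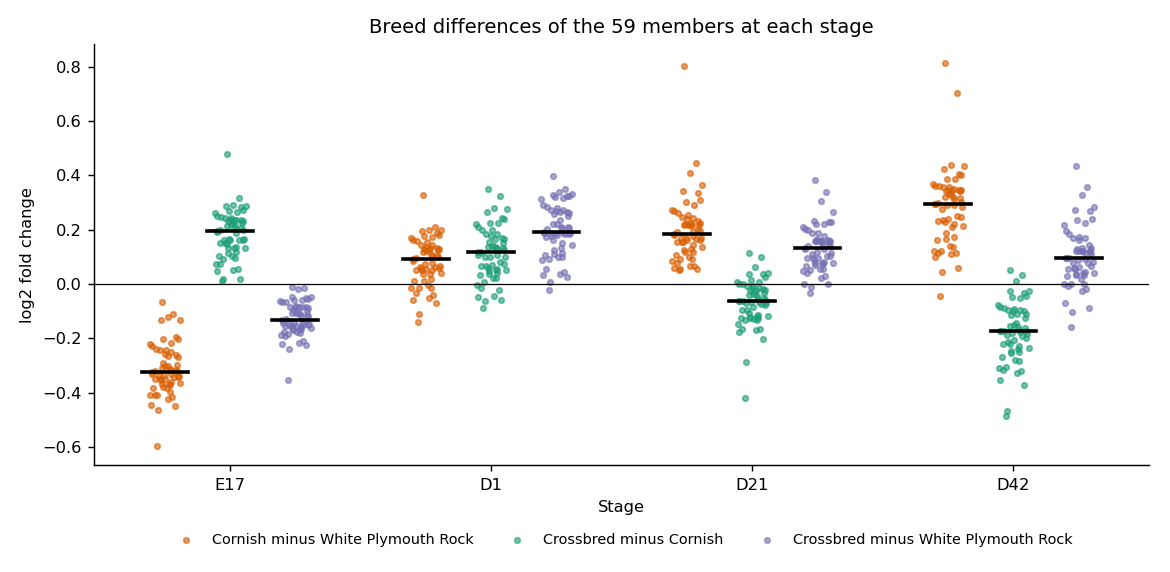
Log2 fold changes of the 59 genes (vertical axis, each a point) in the 12 breed comparisons (horizontal axis), with a black line at their median. For Cornish over White Plymouth Rock the median is -0.32 at E17, 0.09 at D1, 0.18 at D21 and 0.30 at D42; with a library left out it stays between -0.36 and -0.28, 0.04 and 0.13, 0.11 and 0.25, and 0.14 and 0.37 at these stages.

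The stage comparisons asked how the set changed with age, each averaged over the 3 breeds. On the TMM scale the stage of the highest mean was D1 for 40 of 59 members and 24.9% of all genes, and that of the lowest was D42 for 46 members and 25.5% of all genes. With library totals the highest mean was at E17 for 36 members and at D1 for 19 (47.8% and 25.8% of all genes), and the lowest was at D42 for 42 (25.2% of all genes). Over the whole interval from E17 to D42, 6 members rose and 40 fell, against 40% of all genes called higher and 41.2% called lower, and the member median was -0.38. Either way 46 members were called, against 81.2% of all genes, so the number of calls was near that of all genes.

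From E17 to D1, 24 members rose and 4 fell, against 37.3% of all genes called higher and 35.6% called lower, and the median was 0.10. The share of members called higher, 40.7%, was near that of all genes, while the share called lower, 6.78%, was below it. By subunit, 19 of 36 large and 5 of 23 small subunit genes rose. RPL23A, at the rim of the exit tunnel, was at 593.9 ± 98.6 CPM at D1 and 358.1 ± 34.6 CPM at E17 in Cornish (SD, n = 6 each), and rose by 0.52 ± 0.08 over the breeds (adjusted p = 6.6e-08). RPS28 rose by 0.50 ± 0.11, RPL21 by 0.49 ± 0.07, RPL37 by 0.47 ± 0.09 and RPL34 by 0.44 ± 0.07. The 4 that fell were RPS15 (-0.33 ± 0.07), RPL35 (-0.28 ± 0.07), RPLP0 (-0.24 ± 0.08) and RPS23 (-0.16 ± 0.06).

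The direction of this early step depended on the scaling. With library totals in place of TMM, 6 members rose and 14 fell, against 27.6% of all genes called higher and 44.3% called lower. The member median was -0.06. The median of all genes moved to -0.15 under that scaling, so the members still lay above it.

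From D1 to D21, 40 members fell and 7 rose, against 36.8% of all genes called lower and 36.4% called higher, and the median was -0.33. RPL5, on chromosome 8 from 13782993 to 13791058, had a lowest, median and highest value of 805, 946 and 1389 CPM at D21 and 1396, 1649 and 1993 CPM at D1. All 18 D21 libraries lay below all 18 D1 libraries, as for 5.67% of all genes and no other member (-0.77 ± 0.08, adjusted p = 4.71e-14). RPL35A fell by 0.61, RPL37 by 0.60, RPL23A by 0.55 and RPS4Y1 by 0.55. Library totals left 52 members lower and 3 higher, against 53.4% of all genes called lower and 21.6% called higher. The member median was then -0.64, beside -0.32 for all genes.

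Against this fall stood 7 genes that rose from D1 to D21. RPS28 rose by 0.83 ± 0.11 (adjusted p = 1.1e-09), the stalk base protein RPLP0 by 0.78 ± 0.08 (adjusted p = 4.74e-13) and RPL34 by 0.53 ± 0.07 (adjusted p = 1.19e-09). RPS29, a zinc-binding protein of the small subunit head, rose by 0.46 ± 0.07 and the stalk protein RPLP1 by 0.35 ± 0.07. RPL32 and RPS15 were the other 2, at 0.18 and 0.17. With library totals only RPS28, RPLP0 and RPL34 were still called higher, at 0.50, 0.46 and 0.21.

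From D21 to D42, 28 members fell and none rose, against 15.6% of all genes called lower and 17.1% called higher, and the median was -0.15. RPS3 fell by 0.39 ± 0.08, RPS2 by 0.37, RPLP0 by 0.36 ± 0.08 and RPS6 by 0.31. The calls of this step moved with the processing. Library totals gave 13 lower and 3 higher, against 7.87% of all genes called lower and 24% called higher. The member median was then -0.08, and that of all genes 0.08. Leaving out the libraries numbered 2 gave 14 calls.

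From E17 to D42, RPL34 had the largest rise. Its lowest, median and highest value were 246, 343 and 632 CPM at D42 and 135, 162 and 186 CPM at E17. All 18 D42 libraries lay above all 18 E17 libraries, as for 14.6% of all genes and no other member (1.10 ± 0.07, adjusted p = 7.16e-22). RPL34 lies on chromosome 4 from 37285026 to 37288328.

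RPS28 had 198, 307 and 899 CPM at D42 and 108, 141 and 211 CPM at E17 as lowest, median and highest value. The ranges overlapped only slightly (1.09 ± 0.11, adjusted p = 7.31e-14). The gene lies on chromosome 28 from 1300552 to 1301105. RPS29 rose by 0.78 ± 0.07 (adjusted p = 3.56e-15). RPL32, RPLP1 and RPLP0 were called higher at 0.28, 0.27 and 0.17, but under library totals the first and second of these were at -0.12 and -0.13, not called, and RPLP0 was at -0.23 and called lower (adjusted p = 0.00309).

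Of the genes that fell to D42, RPL4 had 1187, 1472 and 2052 CPM at D42 and 2087, 2381 and 3063 CPM at E17. All D42 libraries lay below all E17 libraries, as for 15.2% of all genes and no other member (-0.73 ± 0.06, adjusted p = 2.07e-17). RPL4 lies on chromosome 10 from 18531517 to 18536836. RPS3 fell by 0.79 ± 0.08 (adjusted p = 2.62e-14), RPL35 by 0.73, RPS4Y1 by 0.71 and RPS3A by 0.69. Library totals gave 54 members lower and 3 higher (RPS28, RPL34 and RPS29), against 57.4% of all genes called lower and 25.9% called higher. The member median was then -0.79, beside -0.41 for all genes. All 6 genes that rose from E17 to D42 were among the 7 that rose from D1 to D21. Of the 40 that fell over the whole interval, 34 were among the 40 that fell from D1 to D21. The steps from E17 to D42 and from D1 to D21 have no library in common, but came from the same fit of all 72 libraries. Because the genes moved together from library to library, the overlaps are not separate results gene by gene. The share of all genes in such overlaps was not computed.

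**Figure D4:**
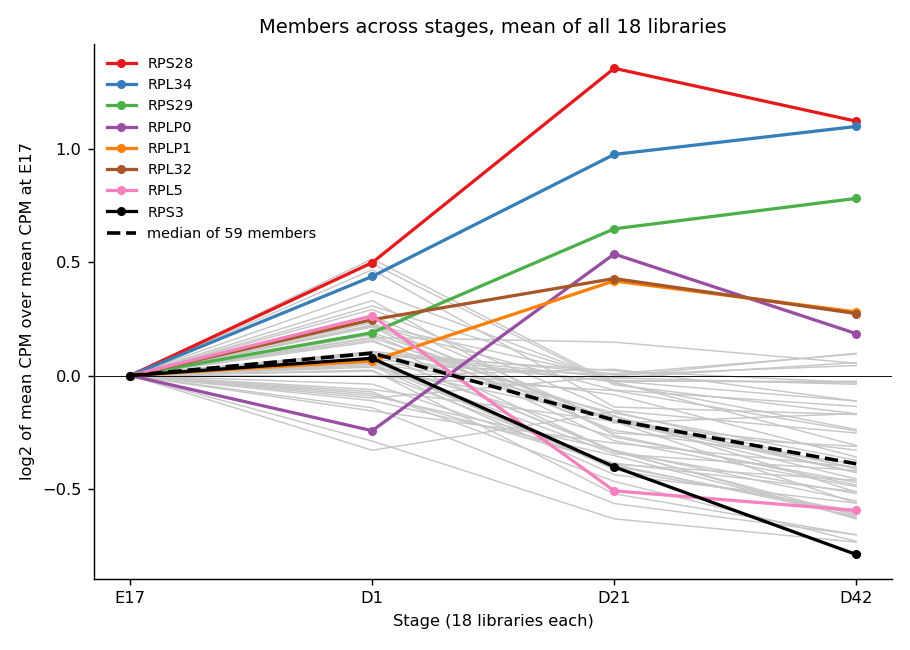
Log2 of the mean CPM at each stage over that at E17 (vertical axis) for the 59 genes at E17, D1, D21 and D42 (horizontal axis), with 8 named genes in colour, the others in grey and the median dashed. On this TMM scale RPS28, RPL34, RPS29, RPLP0, RPLP1 and RPL32 end above their E17 level, and RPL5 and RPS3 below it.

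Because of the opposite courses, the genes' levels relative to each other changed with age. In Cornish, RPS28 lay 1.34 log2 units below the median member at E17, 0.98 below it at D1, 0.43 above it at D21 and 0.23 above it at D42. In White Plymouth Rock RPS28 lay 1.23, 1.00, 0.12 and 0.18 below the median member at E17, D1, D21 and D42. In Cornish, RPL34 moved likewise, being 1.24, 0.83 and 0.01 below and then 0.21 above the median at these stages. These offsets compare a gene with itself across stages, since a gene's own offset also depends on its transcript length.

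The breeds were then set side by side for the same steps. From E17 to D1, 20 members rose and 1 fell in Crossbred (28.2% and 25.5% of all genes), 27 rose and 0 fell in Cornish (29.5% and 28% of all genes), and 1 rose and 11 fell in White Plymouth Rock (28.4% and 25.2% of all genes). The medians were 0.20, 0.25 and -0.13 on the TMM scale. Without the TMM factor, the members' mean share of all counts went from 3.96% at E17 to 3.93% at D1 in Crossbred. It went from 3.50% to 3.64% in Cornish and from 4.31% to 3.44% in White Plymouth Rock. In White Plymouth Rock the gene that rose was RPL21 (0.33 ± 0.11, adjusted p = 0.0138), and those that fell included RPS15 (-0.57 ± 0.12), RPL35 (-0.53 ± 0.12) and RPS3A (-0.52 ± 0.17).

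From E17 to D42, 5 members rose and 39 fell in Crossbred (34.3% and 33.5% of all genes), 13 rose and 14 fell in Cornish (33.7% and 33.2%), and 3 rose and 45 fell in White Plymouth Rock (33.7% and 35.2%). The medians were -0.40, -0.06 and -0.64 on the TMM scale. Without the TMM factor, the members' mean share of all counts fell from E17 to D42 in each breed. It went from 3.96% to 2.28% in Crossbred, from 3.50% to 2.45% in Cornish and from 4.31% to 2.06% in White Plymouth Rock. RPS28 rose by 1.16 ± 0.19 in Crossbred, 1.65 ± 0.20 in Cornish and 0.47 ± 0.19 in White Plymouth Rock, and was called in each. RPL35A was at -0.55 ± 0.15 in Crossbred, 0.04 ± 0.15 in Cornish and -1.01 ± 0.15 in White Plymouth Rock.

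The difference between the Cornish and the White Plymouth Rock step was tested directly. From E17 to D1 it was above 0 for all 59 genes (46.8% of all genes), with a median of 0.39. Of these 0 were called by edgeR or DESeq2 (0.0251% of all genes), and 34 had an unadjusted p under 0.05 (6.67% of all genes). From E17 to D42 it was again above 0 for all 59 (51.6% of all genes), with a median of 0.60, and 4 genes were called higher, against 0.0922% of all genes. These were RPS28 (1.18 ± 0.27, adjusted p = 0.0418), RPL35A (1.05 ± 0.21, adjusted p = 0.0167), RPS3A (1.03 ± 0.24, adjusted p = 0.0418) and RPL35 (0.73 ± 0.17, adjusted p = 0.0463). The calls of RPS28, RPS3A and RPL35 lay close to the threshold and held in 5, 6 and 5 of 17 alternative settings. That of RPL35A held in 14. DESeq2 made 11 calls and the replicate-wise omissions left 0 to 4. Without the D42 libraries numbered 3 there were 3, with RPS28 at 0.90 (adjusted p = 0.0916). The share of all genes called in these alternative fits was not recorded. Both steps contain the E17 libraries of the E17 breed comparison.

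A single test of whether the purebred difference changed over the 4 stages called RPS28 (adjusted p = 0.0299) and RPL35A (adjusted p = 0.0307), against 0.268% of all genes, while 53 of 59 members had an unadjusted p under 0.05 (11.3% of all genes). For RPS28 the Cornish and White Plymouth Rock medians were 134 and 179 CPM at E17, 212 and 177 at D1, 475 and 286 at D21, and 352 and 242 at D42. By these medians Cornish was the lower of the purebreds at E17 and the higher at D1, D21 and D42. In the separate comparison of each stage, however, edgeR called RPS28 only at D21. At D1 no small subunit gene had a log2 fold change above 0.20 for Cornish over White Plymouth Rock.

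RPL35A, on chromosome 9 from 14820452 to 14823484, had a lowest, median and highest value at E17 of 105.1, 124.2 and 138.8 CPM in Cornish and 139.0, 152.6 and 188.1 CPM in White Plymouth Rock. At D42 they were 92.0, 118 and 198 CPM in Cornish and 58.5, 76.2 and 99.6 CPM in White Plymouth Rock. The ranges overlapped slightly at D42 and not at E17. Crossbred RPL35A lay between, with medians of 137 CPM at E17 and 92.5 CPM at D42. Neither gene was called when only the 48 purebred libraries were fitted (adjusted p = 0.0502 for RPS28 and 0.0581 for RPL35A), and both calls were lost without the libraries numbered 1, 2, 4, 5 or 6.

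**Figure D5:**
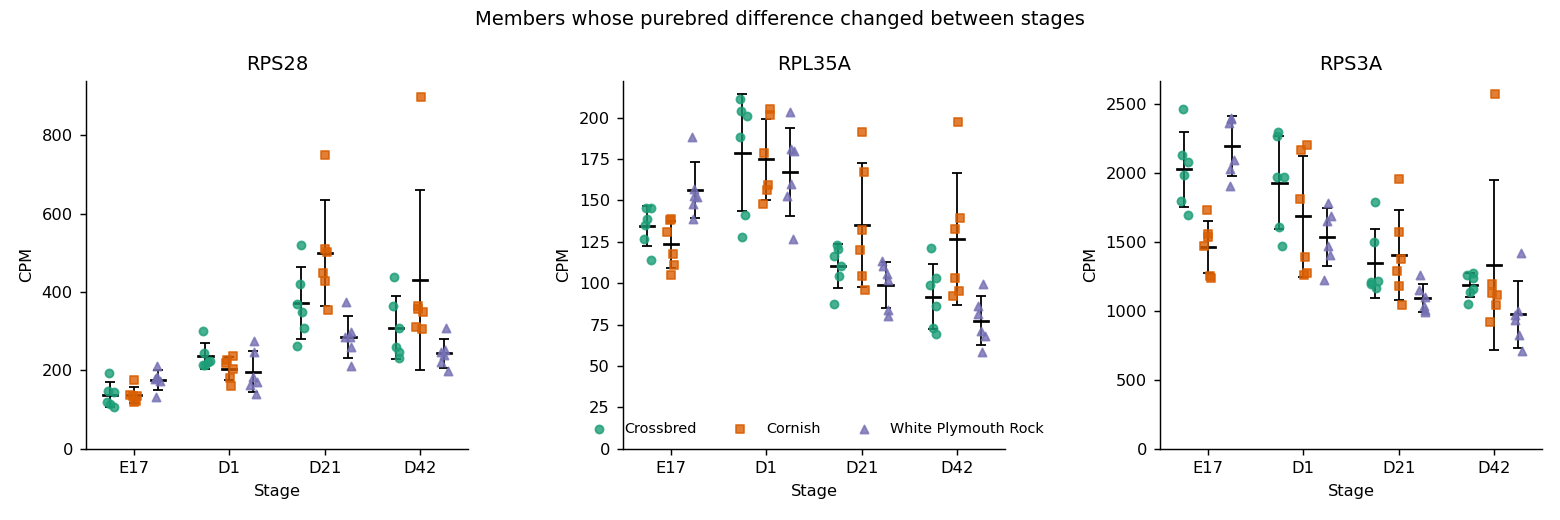
CPM of RPS28, RPL35A and RPS3A (vertical axes, from 0) in the 72 libraries by group (horizontal axis), with the mean ± SD of 6. Cornish medians are below White Plymouth Rock medians at E17 for all 3 genes, and Cornish D42 library 3 stands above the other Cornish D42 libraries for RPS28 and RPS3A.

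Within groups, the ribosomal protein genes moved together from library to library. The median within-group SD of log2 CPM was 0.21 for members and 0.31 for all genes tested, and it was 0.11 for members once each library's member median was taken out. In 3 libraries all 59 genes were above their group mean (Cornish D21 library 5, Crossbred D21 library 3 and Cornish D42 library 3), and in 7 libraries none was. In 50 of 72 libraries at least 50 or at most 9 genes were above it. After the common shift was taken out, RPS28 kept the largest SD at 0.22, followed by RPLP0 at 0.20 and RPL38 at 0.18. The 59 genes are therefore not 59 separate measurements of a library.

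Related gene groups were also compared for Cornish over White Plymouth Rock at E17, where 1.65% of all genes were called higher and 2.07% lower. Of 8 other ribosomal protein genes and paralogues, RPL26L1 fell (-0.35 ± 0.09, adjusted p = 0.0426). All 8 were below 0, with a median of -0.27, and the scaffold protein RACK1 was at -0.20, not called. Of 15 other TOP mRNAs, which encode translation factors and the growth-related protein TPT1, TPT1 fell (-0.48 ± 0.09, adjusted p = 0.0108) and the median was -0.21. Of 53 ribosome biogenesis factors, BMS1 rose (0.28 ± 0.07), DDX10 fell (-0.25 ± 0.05) and the median was -0.05. Of 14 genes of RNA polymerase I and the transcription of ribosomal RNA genes, edgeR called none, nor any of 21 regulators such as mTOR components. These lists had 1 and 4 genes at an unadjusted p under 0.05 (share of all genes not given here). Their medians were -0.06 and -0.01.

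Markers of other cell types also differed between the purebreds at E17, where 1.65% of all genes were called higher in Cornish and 2.07% lower. Of 8 red blood cell genes 5 were higher in Cornish, with a list median of 0.73, and their summed level was 1807 to 2206 CPM in Cornish and 1243 to 1837 CPM in White Plymouth Rock. Of 8 skin epithelium genes 3 were lower in Cornish. Their summed level was 21.7 to 31.8 CPM in Cornish and 22.1 to 329 CPM in White Plymouth Rock, where libraries 1 and 5 were the high ones at 139 and 329 CPM. No gene of either list was at 0 in all libraries of a group at E17. Without these 2 libraries 23 ribosomal protein genes were called lower (share of all genes not recorded) and the median was -0.31. The part of the red blood cell difference in the result was not tested.

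Among the ribosome biogenesis factors, 39 of 53 rose and 5 fell from E17 to D1 on the TMM scale, against 37.3% of all genes called higher and 35.6% called lower, led upward by MAK16 (1.36) and NMD3 (1.03), both factors of large subunit assembly, and downward by NOC4L (-0.61) and NPM1 (-0.57). Among other TOP mRNAs 10 of 15 rose and 1 fell: EIF4A2 was at 1.12 and the elongation factor gene EEF2 at 0.63, while EEF1A1 was at -0.78. Of 21 regulators 13 rose and 1 fell, with SESN1 at 2.93, EIF4EBP1 at 1.70 and DEPTOR at -1.24. From D1 to D21, 33 biogenesis factors fell and 10 rose, 12 other TOP mRNAs fell and 0 rose, and 15 regulators fell and 2 rose, against 36.8% of all genes called lower and 36.4% called higher. With library totals, 30 biogenesis factors, 7 other TOP mRNAs and 12 regulators were called higher from E17 to D1 and 8, 3 and 6 lower, against 27.6% and 44.3% of all genes. From D1 to D21 the same scaling gave 44, 15 and 18 lower and 4, 0 and 1 higher, against 53.4% and 21.6% of all genes.

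The paralogue RPS27L stood apart from this fall, rising by 2.36 ± 0.14 from D1 to D21 and by 2.57 from E17 to D42. It is a separate gene outside the rule. How reads that match several places in the genome were counted is not given in the sources used here, so the values of RPL22, RPL7 and other genes with close copies are uncertain.

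Marker genes of other cell types also changed over the same interval, where cell number and RNA per cell cannot be told apart. From E17 to D42, where 40% of all genes were called higher and 41.2% lower, all 8 leukocyte genes rose (summed level 425 to 3900 CPM at D42 and 191 to 263 at E17) and all 8 red blood cell genes fell (292 to 1009 CPM at D42 and 1243 to 2206 at E17). All 6 fibroblast genes fell (4212 to 22439 CPM at D42 and 37808 to 58410 at E17), as did all 5 genes of dividing cells (14.8 to 157 CPM at D42 and 167 to 337 at E17). No gene of these 4 lists was at 0 in all libraries of a group. The part of these changes in the stage results was not tested.

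The authors' deposited tables of breed comparisons list genes with a p-value up to 0.05, and their log2 fold changes run opposite to the order of the names, with 2500 genes at E17 opposite in sign to the edgeR estimates and 1 of the same sign for the purebreds. Read in that direction, the authors' deposited table for E17 lists 54 of the 59 members for Cornish and White Plymouth Rock, all lower in Cornish. It lists 2517 of the 12046 genes for this comparison. The authors' deposited tables list 1 member at D1, 13 at D21 and 16 at D42 for the same breeds, all higher in Cornish. Of all 12046 genes they list 1114, 2125 and 1203 at these stages. For Crossbred and Cornish at E17 the authors' deposited table lists 38 members, all higher in Crossbred, among 1425 genes. For Crossbred and White Plymouth Rock it lists 15, all lower in Crossbred, among 1095 genes.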

How the data were processed

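RNA sequencing of 72 breast muscle libraries was analysed. The authors deposited a table of estimated counts, whole-valued and without normalisation. Tools named in the submitters' processing notes, with no role, are HISAT2 2.2.1, cutadapt 4.4 and StringTie, and the build is GRCg7b. Annotation and strand setting are not given in the sources. Of counts from 1 to 20, 32.87% were multiples of 4 (25% if evenly spread). The authors also deposited tables with a log2 fold change and a p-value per gene, whose columns, per the file headers, have DESeq2's names.

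Counts were tested with edgeR 4.0.16 and limma 3.58.1 in R 4.3.3 (TMM, filterByExpr, glmQLFit, glmQLFTest, Benjamini-Hochberg adjustment over all genes tested, threshold 0.05), which gives every adjusted p except where DESeq2 1.42.0 is named. Breeds were compared over the 18 libraries of a stage, and stages and the change of the purebred difference with stage over all 72. CPM come from TMM over all 72 libraries. The tests were also run on simulated counts, in which 200 genes were changed by 1 on the log2 scale and each gene was drawn separately. The members moved together from library to library and had smaller median changes, so that simulation does not bear on the member results.

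Members, lists and the rule for named genes were chosen with earlier results of these data known. The rule names the 5 higher and 5 lower called members of largest fold change in a comparison, members called in the purebred difference by stage, landmark proteins of the ribosome, and the 2 called genes each way of other lists with RACK1. A few genes it would name are left out. Other genes named were chosen after their values were seen. Positions come from RefSeq's GRCg7b table, matched by symbol.

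Alternatives were DESeq2, RLE size factors, TMM from non-members, no filter, a mean of at least 1 CPM, other sets of libraries, the replicate number as a block and leaving out replicates. Counts divided by 4, library totals, and leaving out the D42 libraries numbered 3, the shallow D1 library or E17 White Plymouth Rock libraries 1 and 5 were chosen after seeing the data.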

Additional observations from a re-analysis of the deposited data

Results flagged for a closer look

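Single libraries stood apart from their group of 6 for several genes. Cornish D42 library 3 was high for RPS3A (2572 CPM, the others 919 to 1195), RPS28 (898.7, the others 306.8 to 364), RPL34 (631.7, the others 333.8 to 368) and RPL5 (1608, the others 713.9 to 1001). RPS28 was high in Cornish E17 library 3 (176.7 CPM, the others 119.5 to 136.2) and in Crossbred D1 library 2 (301.5, the others 212.8 to 244.1). RPLP0 was high in Cornish D21 library 5 (2925, the others 1745 to 2164), RPL35A in White Plymouth Rock E17 library 5 (188.1, the others 139 to 156.8), and RPS29 was low in Crossbred E17 library 4 (30.14, the others 35.3 to 37.71). These are 9 of 108 groups of values examined. A rate of 1 in 20 would give 5.4, but that figure takes the groups as independent. The genes moved together from library to library, and several of the flags are of Cornish D42 library 3. The figure is therefore no measure of what chance would give here.

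The purebred difference was called as changing with stage for RPS28 (adjusted p = 0.0299) and RPL35A (adjusted p = 0.0307) in edgeR's quasi-likelihood test. Each of these calls held in 11 of 17 alternative settings. The step from E17 to D42 was estimated as larger in Cornish than in White Plymouth Rock for 4 called genes. The log2 differences were 1.18 for RPS28, 1.05 for RPL35A, 1.03 for RPS3A and 0.73 for RPL35. Of 17 alternative settings, the call held in 5 for RPS28, 14 for RPL35A, 6 for RPS3A and 5 for RPL35.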

How the results depend on the processing

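Under the alternatives 380 values of the member medians moved by less than 0.20, the SD of a library's member median within groups. Another 4 moved further, and 2, both of the E17 to D1 step, changed sign. Changes of sign were tallied only where the main fit had calls. Many medians of the breed comparisons are themselves smaller than 0.20 in size, so this tally does not show that they were stable. Among the 380, Crossbred over Cornish at D21 (-0.06, with no call) also changed sign, to 0.02, without Cornish library 5. A tally by gene took the 5 higher and 5 lower called members of a comparison with the largest fold changes. It also took RPS28 and RPL35A in the purebred difference by stage. Of its values 827 kept their direction and their call, 90 kept their direction and lost the call, and 2 turned. In the purebred difference by stage the value is a test statistic, which cannot turn. The E17 to D1 median was -0.13 in White Plymouth Rock libraries alone and -0.0565 with library totals, and RPL32 (-0.12) and RPLP1 (-0.13) turned from E17 to D42 with library totals, as did RPLP0, outside those 5, at -0.23 and called lower. Counts of calls were less stable, and the share of all genes called was not recorded for most of these fits. For Cornish over White Plymouth Rock, E17 had 0 calls in the fit of all 72 libraries, 16 with the replicate block and 11 to 41 with a library left out, D21 had 2 with DESeq2, and D42 had 5 in the fit of all 72 libraries. Crossbred over Cornish at E17 had 1 with DESeq2. In Cornish, Crossbred and White Plymouth Rock libraries alone, E17 to D1 had 18, 17 and 11 calls and D21 to D42 had 0, 0 and 4. In Cornish alone D1 to D21 had 25 and E17 to D42 had 21. D21 to D42 had 16 with library totals and 14 to 38 with a replicate number left out. The purebred difference by stage had 6 calls with DESeq2, 0 in the 48 purebred libraries, 6 without the D42 libraries numbered 3, and 0 to 4 with a replicate number left out. The difference of the E17 to D42 steps had 11 calls with DESeq2, 7 at a mean of at least 1 CPM, 2 with RLE size factors, 0 to 4 with a replicate number left out, and 1 each with TMM from non-members, counts divided by 4, no filter, the 48 purebred libraries and the replicate block. The causes were not tested.

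On average, same-numbered libraries did not deviate together at E17, D1 and D21 (mean correlation 0.01, -0.01 and -0.01). At D42 the mean correlation was 0.16, against -0.03 for libraries of other numbers, and 9 of 18 same-numbered pairs were over 0.1. The D42 libraries numbered 3 had the fewest genes above 0 in their groups (11502 in Cornish, 11491 in Crossbred and 11563 in White Plymouth Rock). The numbers were not taken as pairs in the main fits, at D42 either. With the replicate block the stage steps had 28, 47, 28 and 47 calls and the purebred difference by stage 2.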
